A study of Arabidopsis thaliana with 12 samples.

Results

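The genes described here belong to the cytochrome P450 family and were followed in suspension-cultured cells of *Arabidopsis thaliana* that met a low dose of sugar. A gene was taken when its symbol starts with CYP and a P450 family number and when the platform's annotation names a probe set for that gene alone. The rule took 25 symbols, each with 1 probe set, out of 22746 probe sets tested, of which 13513 name 1 gene alone and together cover 13356 genes. By the synonyms in the reference gene table, 1 of the 25, *CYP71* (AT3G44600), is a cyclophilin and not a P450, which left 24 P450 genes. Of these, 19 belong to the CYP71B subfamily and 5 to other families (*CYP51G2*, *CYP718*, *CYP78A9*, *CYP79A2* and *CYP84A4*). The reference table holds 237 genes whose symbols follow the rule, and 213 of them had no probe set named for that gene alone and were not analysed here. The genes described are therefore mostly 1 subfamily and not a survey of plant P450s.

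The cells came from a root-derived, habituated culture, meaning one that divides without added hormones, and were kept in the dark in full-strength Murashige and Skoog medium. All groups had grown for 7 days on 87 mM xylose (Xyl) as their carbon source. They were then given 1 mM fructose (Fru), glucose (Glc), sucrose (Suc) or, as the control, Xyl for 1 h. RNA from 3 replicates of each treatment was hybridised to 12 Affymetrix ATH1 arrays, and the values are on the log2 scale after RMA normalisation, so that 1 unit is a 2-fold difference. The culture is a single line of undifferentiated cells that was portioned into flasks ahead of treatment. Arrays with the same replicate number are therefore taken as portions of 1 culture, and p-values measure only the spread between these samples. Array medians over all probe sets lay between 4.70 and 4.84.

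P450s are haem proteins that insert an oxygen atom into a small molecule, with electrons passed from NADPH by a reductase. In plants they build sterols, lignin precursors, hormones, glucosinolates and many defence compounds, and the family is among the largest in plant genomes. The CYP71B subfamily is best known in *Arabidopsis* for CYP71B15 (PAD3), which completes the synthesis of the phytoalexin camalexin and is not among the genes measured here. Many CYP71B genes lie side by side as tandem copies.

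Most of these genes gave little signal. The mean over the 12 arrays was 5 or less for 22 of the 24 P450 genes (91.7%), against 51.9% of all probe sets, and it was under 3 for 15 of them, between 3 and 4 for 5 and between 4 and 5 for 2. The files carry no detection calls, so a mean of 5 served here as the limit below which a probe set is called dim, and the brightness of different probe sets does not rank their genes. The exceptions were *CYP71B6* (AT2G24180), known to convert indole-3-acetonitrile, with a mean of 7.77, and *CYP71B28* (AT1G13090), with a mean of 5.52. *CYP84A4*, of the family that holds the ferulate 5-hydroxylase of lignin synthesis, averaged 4.52, and *CYP78A9*, a regulator of fruit and organ growth, averaged 4.35. *CYP718* averaged 3.72. *CYP79A2*, which turns phenylalanine into its oxime for benzylglucosinolate, averaged 2.80. *CYP71B31*, which oxidises the floral terpenoid linalool, averaged 2.39. The reference table gives *CYP51G2*, a copy of the sterol 14-demethylase gene, and *CYP71B27* as transcribed pseudogenes, and their means were 3.04 and 2.84.

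**Figure D1:**
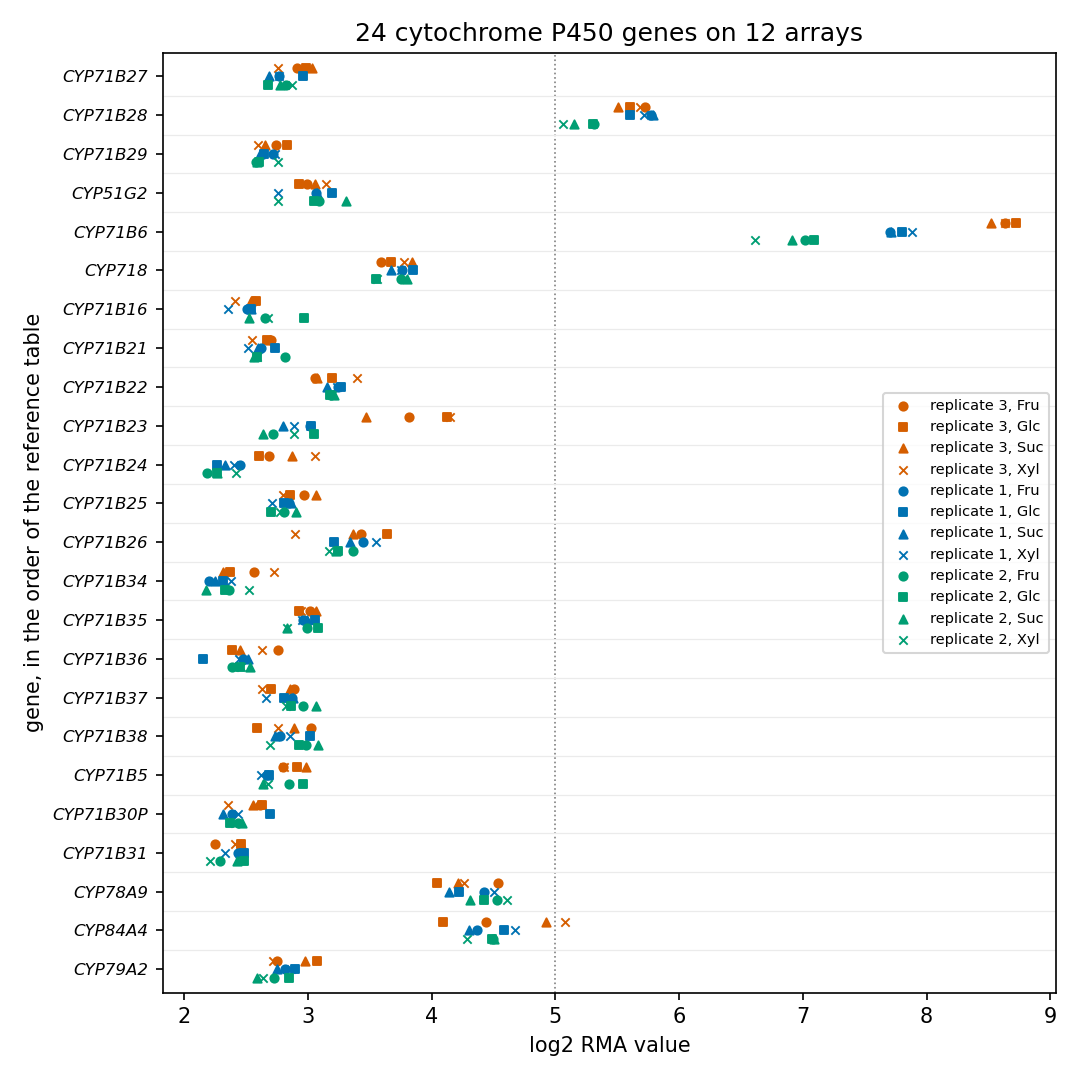
Each point is the log2 RMA value of a P450 gene on 1 of 12 arrays, with genes from top to bottom in the order of the reference table, colours for replicate numbers and symbols for sugars. The dotted line marks a value of 5, above which lie *CYP71B6* (6.61 to 8.72), *CYP71B28* (5.06 to 5.79) and 1 array of *CYP84A4* (5.08, Xyl replicate 3).

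The first question the design asks is which genes respond within 1 h to each sugar. None of the 24 P450 genes passed the unadjusted threshold of 0.002 used in the study's methods. In limma without a replicate block the count was 0 of 24 for Fru against Xyl, where 0.0835% of all probe sets passed, 0 of 24 for Glc against Xyl (0.044% of all) and 0 of 24 for Suc against Xyl (0.0659% of all). With the replicate number as a block, which takes out the differences between replicates, it was again 0 of 24 in each comparison, where 1.09% of all probe sets passed for Fru, 1.24% for Glc and 1.06% for Suc. The methods' t-test gave 0 of 24 in each comparison as well, but the share of all probe sets passing it was not counted. At shares this small, limma's counts of 0 of 24 lie at the background.

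At p under 0.05 between 0 and 4 of the 24 genes were counted. Without the block, 0 of 24 genes were under 0.05 for Fru (2.57% of all probe sets), 0 of 24 for Glc (2.11% of all) and 2 of 24 for Suc (2.04% of all). With the block the counts were 1 of 24 for Fru (11.8% of all), 2 of 24 for Glc (11.8% of all) and 4 of 24 for Suc (10.7% of all). The smallest Benjamini-Hochberg adjusted p among the P450 genes was 1 in each comparison without the block. With the block, limma's smallest adjusted p was 0.378 for Fru, 0.363 for Glc and 0.264 for Suc.

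The differences themselves were small. Against Xyl, the 24 genes lay between -0.24 and 0.21 for Fru, between -0.29 and 0.22 for Glc and between -0.34 and 0.26 for Suc on the log2 scale. The standard error of a difference ran from 0.09 to 0.64 without the block (median 0.12) and from 0.08 to 0.19 with it (median 0.10). The 95% interval with the block reached no further than 0.65 from 0 in any gene for Fru, 0.70 for Glc and 0.59 for Suc, and the median gene's reached 0.32 for Fru, 0.36 for Glc and 0.32 for Suc. Differences inside these intervals were not resolved.

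**Figure D2:**
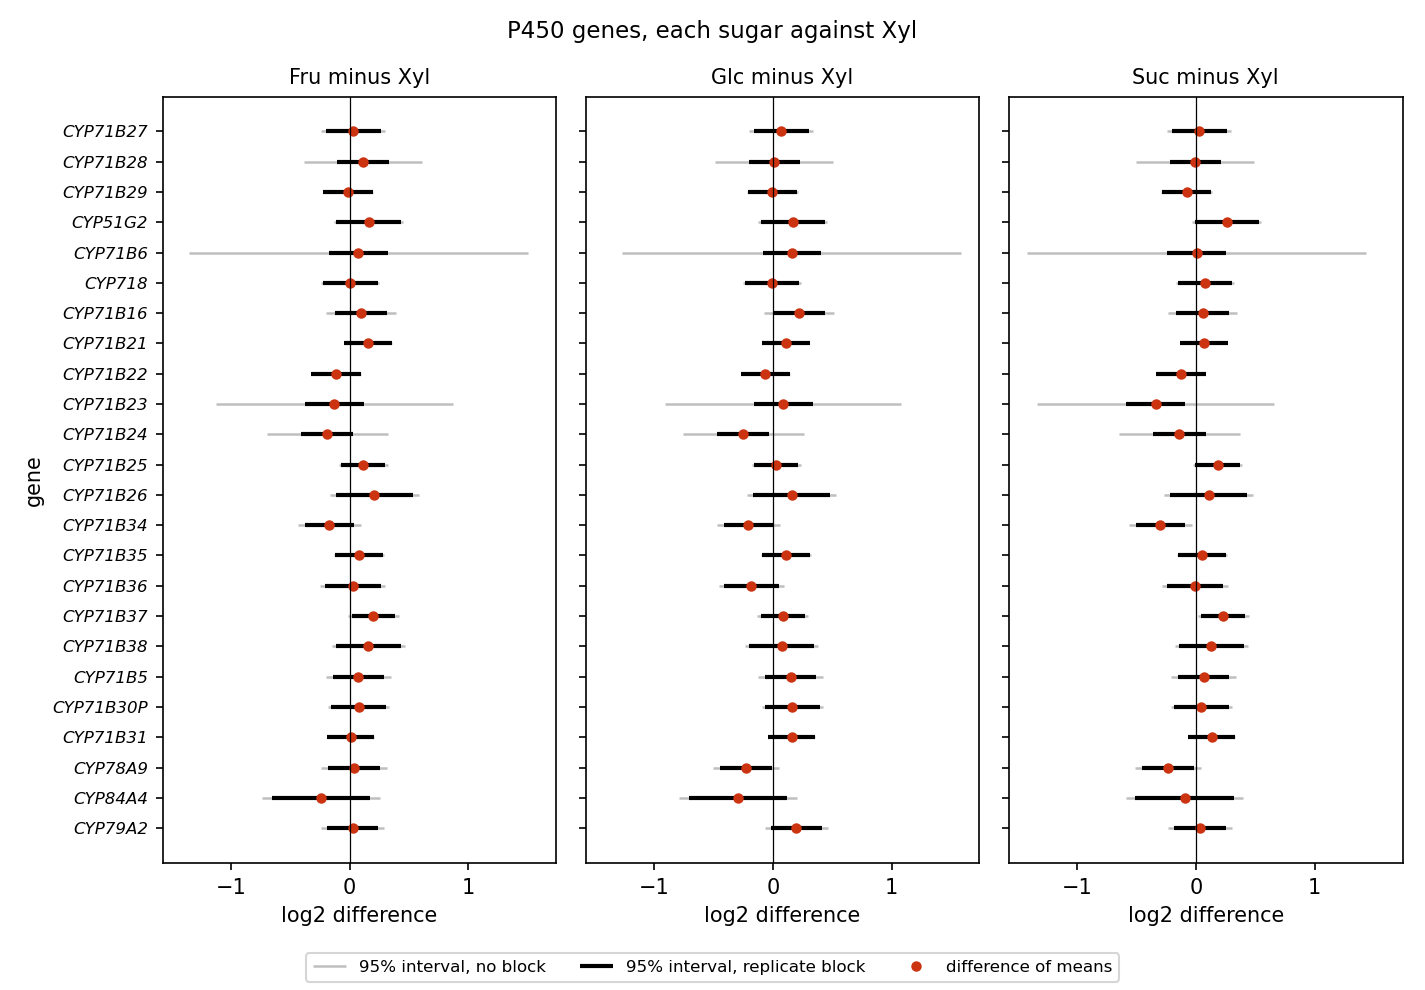
For each P450 gene, points give the difference of mean log2 values between a sugar and Xyl (3 arrays each), black bars the 95% interval with the replicate block and grey bars that without it. All differences lie within 0.34 of 0, and the grey bars are widest for *CYP71B6* and *CYP71B23*.

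More genes were numerically higher than lower with each sugar, by small amounts. The difference was above 0 for 18 genes and below 0 for 6 with Fru, 16 and 8 with Glc, and 15 and 9 with Suc. The median over the 24 genes was 0.06 for Fru, 0.08 for Glc and 0.04 for Suc, beside 0.00, 0.01 and 0.00 over all probe sets. The 3 comparisons share the Xyl arrays, so a low or high Xyl value moves all of them together. The median of the differences within each replicate was 0.05, 0.01 and 0.09 for Fru in replicates 3, 1 and 2, 0.02, 0.08 and 0.06 for Glc, and 0.06, -0.08 and 0.03 for Suc, which is below 0 in replicate 1. Leaving out a single array took the median to 0.0281 for Fru (without Xyl replicate 2), to 0.0117 for Glc (without Glc replicate 3) and to -0.01 for Suc (without Suc replicate 3). The difference had the same sign in all 3 replicates for 6 genes with Fru, 9 with Glc and 7 with Suc. Signs that fall at random would match in some genes too. The share over all probe sets was not counted, so these counts are not read as a response.

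The 3 sugar arrays lay wholly above or below the 3 Xyl arrays for 4 of 24 genes with Fru (6.77% of all probe sets), 2 of 24 with Glc (6.26%) and 4 of 24 with Suc (6.21%). All of these genes were dim and all were of the CYP71B subfamily. With Fru all 4 were higher, with Glc 1 was higher and 1 lower, and with Suc 3 were higher and 1 lower. Whether these shares differ from the background was not tested, and none of the genes passed 0.002.

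*CYP71B34* (AT3G26300) was the gene that lay lower. It read 2.31, 2.25 and 2.18 with Suc in replicates 3, 1 and 2, 2.37, 2.31 and 2.33 with Glc and 2.56, 2.2 and 2.37 with Fru, against 2.73, 2.38 and 2.53 with Xyl. Every Suc and every Glc array was below every Xyl array, while the Fru arrays overlapped those of each other group. The Suc difference from Xyl was -0.30 (SE 0.12), with a 95% interval of -0.57 to -0.03 without the block and -0.51 to -0.09 with it (limma adjusted p = 1 and 0.264). It was -0.21 for Glc (-0.47 to 0.06 without the block, -0.41 to 0.00 with it). For Fru it was -0.17 (-0.44 to 0.10 without the block, -0.38 to 0.04 with it). None of these passed the threshold.

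*CYP71B37* (AT3G26330) lay higher with Fru and Suc. Its values in replicates 3, 1 and 2 were 2.89, 2.87 and 2.96 with Fru, 2.86, 2.88 and 3.06 with Suc and 2.71, 2.80 and 2.86 with Glc, against 2.63, 2.66 and 2.82 with Xyl. Fru and Suc arrays were all above the Xyl arrays, and Glc arrays overlapped them. Without the block the difference was 0.20 for Fru (SE 0.10, 95% interval -0.01 to 0.42), 0.23 for Suc (0.01 to 0.44) and 0.09 for Glc (-0.13 to 0.30). The intervals with the block were 0.02 to 0.38 for Fru, 0.05 to 0.41 for Suc and -0.10 to 0.27 for Glc. With the block the limma adjusted p was 0.378 for Fru, 0.342 for Suc and 0.746 for Glc.

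*CYP71B25* (AT3G26270) read 2.97, 2.85 and 2.81 with Fru and 3.06, 2.86 and 2.90 with Suc in replicates 3, 1 and 2, against 2.80, 2.71 and 2.77 with Xyl, a difference of 0.11 for Fru and 0.18 for Suc (SE 0.09 each). The lowest Fru and Suc arrays cleared the highest Xyl array narrowly. *CYP71B31* (AT3G53300) was at 2.46, 2.48 and 2.48 with Glc and 2.46, 2.45 and 2.43 with Suc, against 2.41, 2.33 and 2.21 with Xyl, a difference of 0.16 for Glc and 0.13 for Suc (SE 0.09 each). Its Fru arrays (2.25, 2.43 and 2.29) overlapped the Xyl arrays. *CYP71B21* (AT3G26190) stood at 2.70, 2.62 and 2.81 with Fru, against 2.55, 2.52 and 2.59 with Xyl (0.16, SE 0.09). *CYP71B35* was the remaining gene without overlap, with a difference of 0.08 for Fru. The 95% intervals of *CYP71B21*, *CYP71B25*, *CYP71B31* and *CYP71B35* all held 0 in these comparisons, with and without the block.

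The P450 genes of the role lists and the pseudogene *CYP51G2* did not pass the threshold either. *CYP84A4* differed from Xyl by -0.24 with Fru, -0.29 with Glc and -0.10 with Suc (SE 0.22 each), and the sign was not shared by the 3 replicates for any sugar. *CYP79A2* differed by 0.03 with Fru, 0.20 with Glc and 0.03 with Suc (SE 0.12 each). *CYP51G2* read 3.06, 3.08 and 3.31 with Suc in replicates 3, 1 and 2, against 3.15, 2.76 and 2.76 with Xyl, so the Suc array was higher in replicates 1 and 2 and lower in replicate 3. The difference was 0.26 (SE 0.13, 95% interval -0.03 to 0.55). *CYP71B6*, the gene with a mean of 7.77, differed by 0.07 with Fru, 0.16 with Glc and 0.00 with Suc (SE 0.64 each without the block), and with the block its intervals ran from -0.17 to 0.32 for Fru, from -0.09 to 0.41 for Glc and from -0.24 to 0.25 for Suc.

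The study further asked whether responses are particular to a sugar. The sugars compared with one another again gave 0 of 24 P450 genes past 0.002 in limma. Without the block 0.0572% of all probe sets passed for Suc against Glc, 0.0044% for Suc against Fru and 0.022% for Fru against Glc, and with it 0.637% passed for Suc against Glc, 0.585% for Suc against Fru and 0.44% for Fru against Glc. At p under 0.05 the counts were 0 of 24 in all 3 without the block (1.48%, 1.77% and 1.66% of all probe sets). With it they were 1 of 24 each (7.68%, 11.3% and 8.97% of all).

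*CYP78A9* (AT3G61880) was the gene counted for Suc against Fru and for Fru against Glc. It read 4.54, 4.42 and 4.53 with Fru in replicates 3, 1 and 2, 4.22, 4.14 and 4.31 with Suc and 4.05, 4.22 and 4.42 with Glc, against 4.26, 4.50 and 4.61 with Xyl. All Fru arrays were above all Suc arrays and, by less than 0.01 at the closest pair, above all Glc arrays. Suc minus Fru was -0.27 (SE 0.12), with a 95% interval of -0.55 to 0.00 without the block and -0.49 to -0.05 with it (limma adjusted p = 1 and 0.361). Fru minus Glc was 0.26 (SE 0.12), with an interval of -0.01 to 0.54 without the block and 0.05 to 0.48 with it (adjusted p = 1 and 0.518). Against Xyl the differences were 0.04 for Fru, -0.23 for Glc and -0.24 for Suc (SE 0.12 each), the Glc and Suc ones below 0 in all 3 replicates.

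*CYP71B23* (AT3G26210) was the gene counted for Suc against Glc, with the largest difference of the 24 in any of the 6 comparisons. Its values in replicates 3, 1 and 2 were 3.47, 2.80 and 2.64 with Suc, 4.12, 3.02 and 3.05 with Glc and 3.82, 3.02 and 2.72 with Fru, against 4.15, 2.89 and 2.89 with Xyl. Replicate 3 stood apart in every sugar, so the groups overlapped, yet Suc was the lowest value within each replicate. Suc minus Glc was -0.43, with a 95% interval of -1.42 to 0.57 without the block (SE 0.45) and -0.68 to -0.18 with it (SE 0.12, limma adjusted p = 0.333). Suc minus Xyl was -0.34, made of -0.68, -0.09 and -0.25 in replicates 3, 1 and 2 (interval with the block -0.59 to -0.09, adjusted p = 0.291).

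In 4 of the genes most of the variance lay between replicates. The replicate number accounted for 97.2% of the variance of *CYP71B6* over the 12 arrays, 86.5% of that of *CYP71B28*, 86.3% of that of *CYP71B23* and 78.2% of that of *CYP71B24*. *CYP71B6* and *CYP71B28* have means over 5, and all probe sets with such means had a median share of 75.4%. Over the 24 genes the median share was 23.8%, against 54.0% over all probe sets, and the sugars held a median of 26.5%, against 14.2% over all. Noise alone gives each term a share, and a larger one to the sugars, which have more groups than there are replicates. Whether the P450 shares exceed it was not tested, so they are not read as a sugar response. The 22 dim genes had a median share for replicate of 20.3%, against 33.1% over all dim probe sets, and one for sugar of 28.5%, against 18.7%. Their spread was small in itself, with a median SD over the 12 arrays of 0.13, against 0.17 over all dim probe sets.

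Replicate 3 was compared with replicates 1 and 2 in a fit that kept sugar as a term. Since the arrays of a replicate number are taken to share a culture, these p-values set 3 cultures against the spread between arrays and say nothing of a treatment. At a limma adjusted p under 0.05, 3 of 24 P450 genes (12.5%) were called, where 47.9% of all probe sets were, and all 3 were higher in replicate 3, where 23.5% of all probe sets were called higher. The P450 count was 7 once arrays were centred on their medians, which raised the median of all probe sets from 0.03 to 0.10. That centring also took the probe sets called from 10896 to 11901 of 22746. The P450 count was 5 when Glc replicate 3 was left out, where 10498 of all probe sets were called. Between replicates 1 and 2, 2 of 24 (8.33%) were called, both higher in replicate 1, where 27.8% of all probe sets were called and 12.9% were called higher. Fewer cells with a transcript and less of it per cell cannot be told apart in these bulk samples.

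*CYP71B6* was called in both comparisons. In the order Fru, Glc, Suc and Xyl it read 8.63, 8.72, 8.52 and 8.63 in replicate 3, 7.70, 7.80, 7.71 and 7.88 in replicate 1 and 7.01, 7.09, 6.91 and 6.61 in replicate 2. The 3 sets of 4 arrays did not overlap, whatever the sugar. Replicate 3 lay wholly apart from replicates 1 and 2 in 3 of 24 P450 genes, beside 26.7% of all probe sets. Replicates 1 and 2 lay apart in 2 of 24, beside 28.5% of all. Replicate 3 was higher than replicates 1 and 2 by 1.28 (SE 0.09, 2.44-fold, limma adjusted p = 2.58e-08), and replicate 1 was higher than replicate 2 by 0.87 (SE 0.10, 1.82-fold, adjusted p = 2.34e-05).

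*CYP71B23* and *CYP71B24* (AT3G26230) were high in replicate 3 only. For *CYP71B23* the values given above averaged 3.89 ± 0.32 in replicate 3 and 2.88 ± 0.15 in replicates 1 and 2 (SD, n = 4 and 8 arrays), a difference of 1.01 (SE 0.09, 2.02-fold, limma adjusted p = 3.11e-07). *CYP71B24* read 2.69, 2.60, 2.87 and 3.06 with Fru, Glc, Suc and Xyl in replicate 3, while its arrays of replicates 1 and 2 lay between 2.19 and 2.46. In both genes the arrays of replicate 3 did not overlap the others, which held for 26.7% of all probe sets. The difference for *CYP71B24* was 0.48 (SE 0.08, 1.39-fold, adjusted p = 0.000131). Both genes were dim in all replicates, with a highest array of 4.15 for *CYP71B23* and 3.06 for *CYP71B24*. Within replicate 3 both genes had their highest value with Xyl.

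*CYP71B28* was low in replicate 2. It read 5.72, 5.60, 5.51 and 5.69 with Fru, Glc, Suc and Xyl in replicate 3, 5.77, 5.60, 5.79 and 5.72 in replicate 1 and 5.31, 5.30, 5.15 and 5.06 in replicate 2. Replicate 2 lay below both others. Replicate 1 was higher than replicate 2 by 0.51 (SE 0.09, 1.43-fold, limma adjusted p = 0.000617), whereas replicate 3 against replicates 1 and 2 gave 0.17 (adjusted p = 0.0888).

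**Figure D3:**
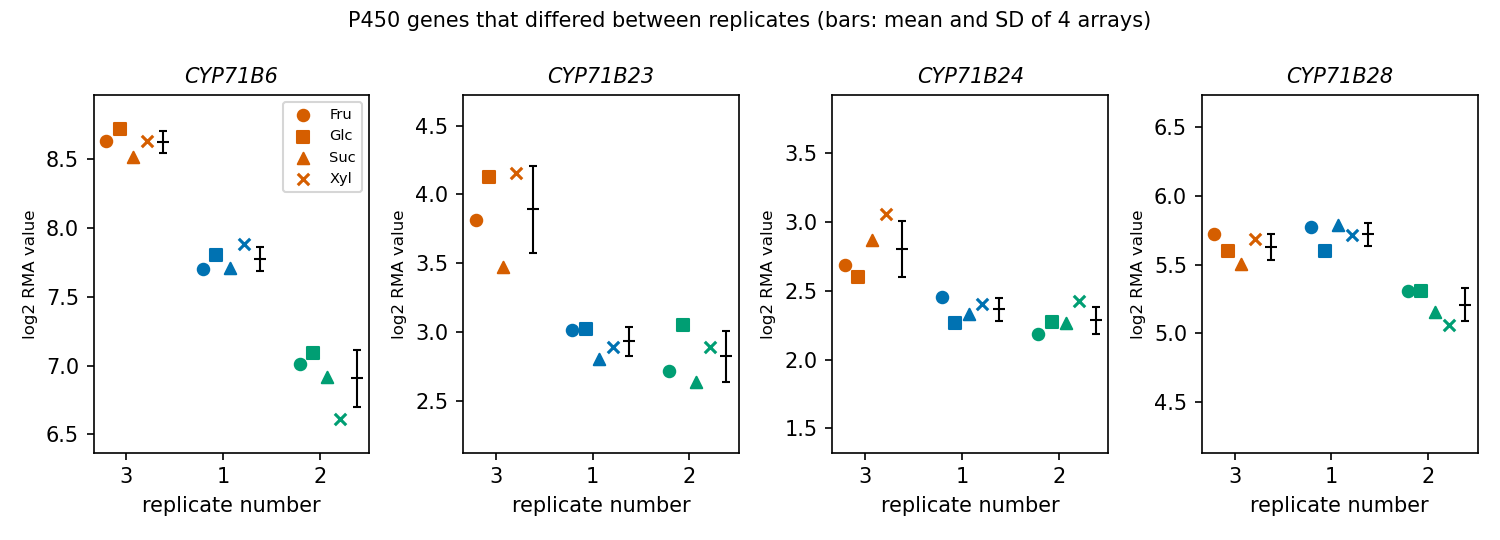
Log2 RMA values of the 4 P450 genes with an adjusted p under 0.05 between replicates, by replicate number, with symbols for sugars and bars for the mean and SD of 4 arrays. Replicate 3 lies above the others in *CYP71B6*, *CYP71B23* and *CYP71B24*, and replicate 2 lies lowest in *CYP71B6* and *CYP71B28*.

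Over all 24 genes the median size of the difference was 0.11 for replicate 3 against replicates 1 and 2 and 0.07 for replicate 1 against replicate 2, beside 0.21 and 0.15 over all probe sets. The other members lay between -0.13 (*CYP78A9*) and 0.18 (*CYP71B34*) for replicate 3 against replicates 1 and 2.

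Few markers of other cell types could be read beside these differences. Among markers of photosynthetic cells 1 of 20 had a probe set named for it alone, *RCA* (Rubisco activase), which read 7.26 to 7.69 in replicate 3, against 6.18 to 6.77 in replicates 1 and 2, a difference of 1.02 (SE 0.09, limma adjusted p = 5.22e-07). Of 14 root markers 2 did, the root hair expansins *EXPA7* and *EXPA18*, which lay between 2.75 and 3.85 on all arrays and were not called between replicates (adjusted p = 0.201 and 0.368 for replicate 3 against replicates 1 and 2). None of 16 xylem markers did. *CYP71*, the cyclophilin, was lower in replicate 3 by 0.69 (SE 0.07, adjusted p = 2.62e-06). Their part in the P450 differences between replicates was not tested.

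Position was set beside these differences because 17 of the 24 genes lie in 3 stretches, within which a member is at most 10 genes from the next. Gene order was read from the reference table of the assembly TAIR10.1, counting protein-coding genes and pseudogenes. On chromosome 1, *CYP71B27*, *CYP71B28* and *CYP71B29* fall in a stretch of 4 genes. On chromosome 3, 11 members from *CYP71B16* to *CYP71B37* fall in a stretch of 24 genes, 18 of which carry a CYP symbol, and *CYP71B5*, *CYP71B30P* and *CYP71B31* fall in a stretch of 4. The other 7 members are single.

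The genes called between replicates were set beside their neighbours, a contrast between genes that was not tested. *CYP71B21*, *CYP71B22* and *CYP71B23* are adjacent, and replicate 3 minus replicates 1 and 2 was 0.02 for *CYP71B21* (adjusted p = 0.813), -0.03 for *CYP71B22* (adjusted p = 0.802) and 1.01 for *CYP71B23*. *CYP71B24* is the next member in the stretch, 2 places on, and *CYP71B25*, 7 places further, differed by 0.12 (adjusted p = 0.152). On chromosome 1, *CYP71B28* differed by 0.51 between replicates 1 and 2 and its neighbour *CYP71B29* by 0.04 (adjusted p = 0.776). *CYP71B34* to *CYP71B37* are adjacent as well, and Suc minus Xyl was -0.30 for *CYP71B34*, 0.05 for *CYP71B35*, -0.01 for *CYP71B36* and 0.23 for *CYP71B37*, none past 0.002. All 24 probe sets carry the array's suffix for a probe set specific to its gene, and cross-hybridisation between tandem copies was not tested.

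**Figure D4:**
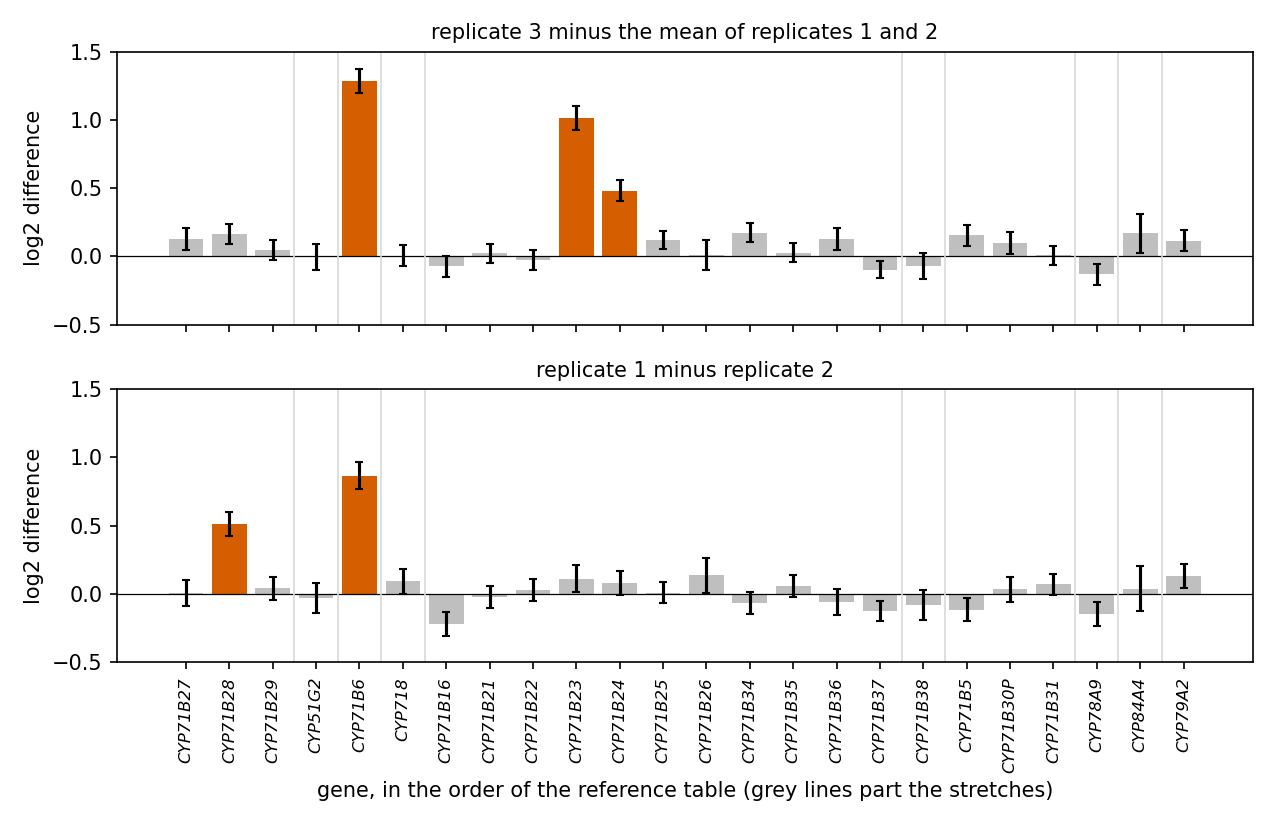
Bars give the log2 difference of replicate 3 minus the mean of replicates 1 and 2 (upper panel) and of replicate 1 minus replicate 2 (lower panel), with lines for ± 1 SE and orange for an adjusted p under 0.05, and genes run along the axis in the order of the reference table, with grey lines between stretches. The orange bars are *CYP71B6*, *CYP71B23* and *CYP71B24* above and *CYP71B6* and *CYP71B28* below.

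Genes of the pathways in which P450s act were read from lists of their partner enzymes, of which 8 had a probe set named for the gene alone. These were 4 of 22 for phenylpropanoids (*HCT*, *CCR2*, *CCOAMT* and *DFR*), 1 of 21 for sterols (*CPI1*), 1 of 18 for oxylipins (*OPCL1*) and 2 of 28 for glucosinolates (*GSTU20* and *UGT74B1*). No probe set was named for any of 18 P450 reductase and cytochrome b5 partners or of 39 hormone genes. In limma 0 of the 8 passed 0.002 in any of the 6 sugar comparisons, with or without the block, where 0.229% of all probe sets passed in at least 1 of them without it and 3.65% with it. At p under 0.05 in at least 1 of the 6, the count was 1 of 8 without the block (7.59% of all probe sets and 2 of the 24 P450 genes) and 4 of 8 with it (33.4% of all and 5 of the 24). *UGT74B1*, the glucosyltransferase that makes desulfoglucosinolates, read 5.47, 5.37 and 5.30 with Fru in replicates 3, 1 and 2, 5.59, 5.23 and 5.56 with Glc and 5.47, 5.34 and 5.56 with Suc, against 5.61, 5.75 and 5.75 with Xyl. Every other array was below the lowest Xyl array. Without the block the differences were -0.32 for Fru (SE 0.12, 95% interval -0.58 to -0.06), -0.24 for Glc (-0.50 to 0.02) and -0.24 for Suc (-0.51 to 0.02), with a limma adjusted p = 1 in each. With the block the intervals were -0.55 to -0.09 for Fru, -0.47 to -0.01 for Glc and -0.48 to -0.01 for Suc. The limma adjusted p with the block was 0.269 for Fru, 0.407 for Glc and 0.436 for Suc.

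Of the 8, 5 were called between replicate 3 and replicates 1 and 2, where 47.9% of all probe sets were, and 4 of them were higher in replicate 3 (23.5% of all). *CCR2*, a cinnamoyl-CoA reductase, was higher in replicate 3 by 0.97 (SE 0.15, limma adjusted p = 0.000128), *CCOAMT* by 0.83 (SE 0.13, adjusted p = 0.000112), *OPCL1*, a CoA ligase of jasmonate synthesis, by 0.53 (SE 0.08) and *GSTU20* by 0.28 (SE 0.08). *HCT*, which makes the substrate of a P450 of lignin synthesis, lay at 9.12 to 9.82 in replicate 3, against 9.47 to 10.27 in replicates 1 and 2, and was lower by 0.33 (SE 0.11, adjusted p = 0.0202). Between replicates 1 and 2, *CPI1*, the cyclopropylsterol isomerase, was higher in replicate 1 by 0.67 (SE 0.13, adjusted p = 0.00128), as were *HCT* and *CCR2*, which makes 3 of 8 called, beside 27.8% of all probe sets.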

How the data were processed

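ATH1 arrays measured RNA from 12 samples of the Xyl-grown culture. The authors deposited log2 values of 22810 probe sets, made by RMA (background correction, quantile normalisation between arrays and summarising of probes) in Affymetrix Expression Console, and the submitters' processing notes also name limma, with versions not given in the sources used here. A second deposited table held the same log2 values, with a largest difference of 0. Its columns of the authors' own comparisons (log2 fold changes, p-values, adjusted p-values and log odds) were not used. The quantile step of RMA gives the arrays a common distribution of probe intensities, so a shift shared by most genes would be largely removed. The summarised values still differed a little, with array medians from 4.70 to 4.84.

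The 64 control probe sets were left out and 22746 tested, two-sided, in limma 3.58.1 (R 4.3.3). Sugars were compared in 1 fit of the 4 groups without a block (8 residual degrees of freedom), at the methods' p of 0.002 and at Benjamini-Hochberg adjusted p under 0.05. Replicates were compared in a fit with sugar as a term (6 residual degrees of freedom). The labels number the replicates, and for each of the 18 same-numbered array pairs the deviations from the group mean correlated (r from 0.772 to 0.938, median 0.868), so the numbers pair the arrays and blocked values are given. The fits were tested on simulated data. The number of arrays limits the precision. Gene names came from the platform's annotation and a reference table of TAIR10.1. Start coordinates served only to put the genes in order, and sequences were not used here.

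The members and lists were chosen with earlier results of these data known. The rule named genes past 0.002 in a sugar comparison, the 3 highest and 3 lowest against Xyl among those without overlap, the extremes among genes called between replicates, and up to 3 genes of each role list by mean. *CYP71B35*, *CYP71B23* and *CYP71B24* between sugars, *CYP51G2*, *CYP718* and *UGT74B1* were named after their values were seen. So were the partner enzymes detailed between replicates (*CCR2*, *CCOAMT*, *OPCL1*, *GSTU20*, *HCT* and *CPI1*), which the rule did not name. Alternatives were the block (fixed or random), the methods' t-test, other variance priors, filters and normalisations, fits of fewer arrays, and leaving out each array.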

Additional observations from a re-analysis of the deposited data

How the results depend on the processing

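The count of P450 genes past 0.002 stayed at 0 in all 6 sugar comparisons under each of the 11 other settings, the replicate block, the random block (correlation 0.61) and the methods' t-test included, and without each of the 12 arrays. It was 0 of 24 except with dim probe sets left out, where only 2 members were tested and it was 0 of 2. Shares of all probe sets were counted only for limma without a block and with the replicate block. The median difference from Xyl over the P450 genes, with the replicate block 0.06 for Fru, 0.08 for Glc and 0.04 for Suc as without it, moved by more than its spread in some. For Fru it was 0.11 with each array centred on its median, which itself took the median of all probe sets to 0.05, 0.0214 after a further quantile normalisation and 0.0281 to 0.0696 when single arrays were left out, the lowest without Xyl replicate 2. For Glc it was 0.0458 after that normalisation and 0.0117 to 0.0832 when single arrays were left out, the lowest without Glc replicate 3 and 0.0364 without Xyl replicate 2. For Suc single arrays gave -0.01 to 0.07, the lowest without Suc replicate 3.

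The 3 P450 genes called for replicate 3 against replicates 1 and 2 became 1 (*CYP71B6*) with dim probe sets left out, which kept only 2 members. In that setting 7670 of 10947 probe sets were called, against 10896 of 22746 as deposited. They became 7 with arrays centred on the median, which moved the median of all probe sets from 0.03 to 0.10 and added *CYP71B5*, *CYP71B25*, *CYP71B28* and *CYP71B34*, all higher. Centring also took the probe sets called to 11901. Leaving out single arrays gave 3 to 5, with *CYP71B34* (adjusted p = 0.0381) and *CYP84A4* (adjusted p = 0.0235) added without Glc replicate 3, where 10498 probe sets were called. For replicate 1 against 2 leaving out single arrays gave 2 to 3. Calls over all probe sets were not counted for that comparison or for the other left-out arrays. The cause was not tested. The genes that the rule named for arrays without overlap between a sugar and Xyl, or for a call between replicates, were followed over the settings. They kept their direction and side of the threshold in the comparison they were named for, in every setting that measured them. *CYP71B35*, *UGT74B1* and the partner enzymes detailed between replicates, named after their values were seen, were not followed. No member has several probe sets, so averaging them changed nothing, and most members are dim, which limits what small differences show.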
